A study of Homo sapiens with 6 samples.

Results

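The genes described here make amino acids or join them to transfer RNA, and were read in cultured human cells that had grown beside cells producing reactive oxygen species (ROS). They were 33 genes chosen by name for these roles, with no measured value in the rule, and all 33 had a row among the 23686 genes of the files. Of these, 13 encode enzymes of asparagine, serine, proline and cysteine synthesis and of the folate-bound one-carbon cycle, and 20 encode the aminoacyl-tRNA synthetases of the cytosol, 18 of which the files list under older symbols such as AARS for AARS1. HEK293 is an established line derived from human embryonic kidney, and all 6 libraries came from HEK293 cells of genotype GFP+ (green fluorescent protein) grown in high-glucose DMEM with fetal bovine serum and sorted by FACS for GFP. In the co-culture group (3 libraries) the GFP+ cells had shared a dish for 10 h with ROS-producing HEK293 (+DAAO) cells. The control group (3 libraries) held sorted GFP+ cells that the labels call WT. The letters DAAO usually stand for a D-amino acid oxidase, which forms hydrogen peroxide as it oxidises D-alanine and similar substrates, and the protocol gives 25 µM D-alanine. That protocol text is shared by both groups, so the labels do not say whether the controls received D-alanine or had partner cells. The comparison asks how transcript levels differ in cells that shared a dish with ROS-producing neighbours.

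Each aminoacyl-tRNA synthetase attaches an amino acid to its own transfer RNA, and the charged tRNA then serves the ribosome. When an amino acid runs short, uncharged tRNA activates the kinase GCN2 (gene EIF2AK4), which phosphorylates the initiation factor eIF2, slows general translation and raises translation of the transcription factor ATF4. ATF4, paired with CEBP-family proteins, binds a short element in the promoters of ASNS, of serine and one-carbon enzymes and of many synthetases, so this gene set is a standard readout of the integrated stress response, which other kinases start under other stresses.

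None of the 33 genes passed the test. With edgeR's quasi-likelihood test on read counts and Benjamini-Hochberg adjustment over all genes, 0 of the 33 members had an adjusted p under 0.05, where 4.83% of the 14582 genes tested did. All 33 members had passed the filter on low counts. At an unadjusted p under 0.05 there were 5 higher members (MTHFD1L, ASNS, PSAT1, EPRS and FARSB) and 1 lower (FARSA), 18.2% of the members, where 23.2% of all tested genes were under that value. DESeq2 and limma-voom also gave 0 members at an adjusted p under 0.05, where 7.08% and 4.43% of all genes passed, with 5 and 6 members at an unadjusted p under 0.05. The co-culture libraries all lay above or all below the controls for 11 members, or 33.3%, where 29.3% of all tested genes were so placed. They lay above for 9 members and below for 2, where 14.3% and 15% of all genes did. The count of members stayed at 0 in 13 of 15 alternatives and was 4 without control 1 and 1 without control 3, as described further on. Where it stayed at 0, the share of all genes past the threshold was 4.86% with DESeq2's size factors, 6.05% with total reads, 4.5% with no filter, 6.27% with a mean of at least 5 CPM (reads scaled to library size) and 4.46% with both strands counted. It was 1.12% with the replicate number as a term. It was 0.831%, 0.503% and 2.18% without co-culture libraries 1, 2 and 3, and 0.44% without control 2. Nothing in the labels says that the replicates came from separate cultures, so p-values measure only the spread between these libraries.

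The intervals around these differences were narrow. On the log2 scale the differences ran from -0.19 (FARSA) to 0.20 (MTHFD1L), with a median of 0.034 over the members and -0.0022 over all tested genes. The median was 0.034 over the 23 members listed as ATF4 targets and 0.025 over the other 10. Across the 33 genes, the 95% intervals reached no lower than -0.43 (CTH, 0.740 times the control level) and no higher than 0.37 (EPRS, 1.29 times). Each of the 33 intervals lay within -0.5 to 0.5, as did those of 69.1% of all tested genes. The median SE was 0.067 for the members and 0.090 for all tested genes. In the controls 31 of the 33 members lay above the median level per kilobase of the tested genes with a length. The part of expression level in these widths was not tested. In these bulk libraries, fewer cells with a transcript and less transcript per cell cannot be told apart.

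**Figure D1:**
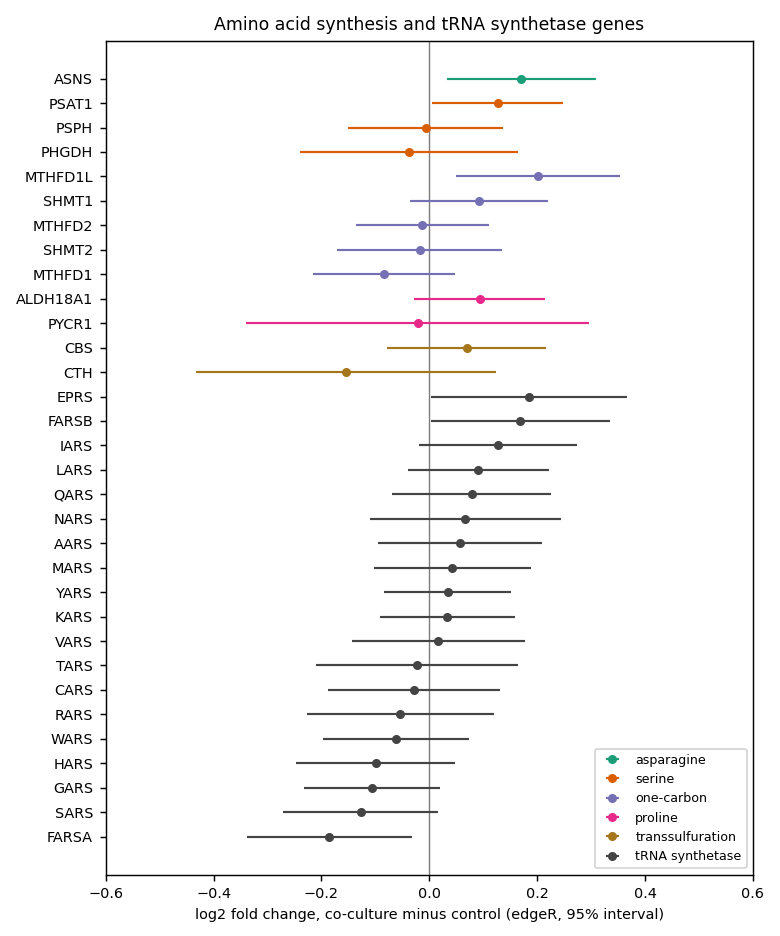
Log2 fold change (co-culture minus control, horizontal axis) of 32 of the 33 genes, coloured by role, with 95% intervals from edgeR's fit on 3 libraries a group. The 32 intervals lie between -0.43 and 0.37, and 26 of them cross 0.

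The libraries held 19091085 to 36250314 reads assigned to genes, of which 104412 to 204293 fell on the 33 genes. That share was lowest in co-culture library 2, at 0.540% (Wilson 95% interval 0.537% to 0.544%), and highest in co-culture library 3, at 0.564% (0.561% to 0.566%); such intervals cover counting error only. CPM in the text were scaled between libraries by trimmed means of M-values (TMM), except those of the markers in this paragraph, which are relative to total reads. Among the markers that HEK293 cells are known to express, LIN28B, PAX2, NEFM, NEFL and INA were all present, and their summed level was 406 to 442 CPM in the controls and 443 to 462 CPM in co-culture. The sum joins 3 markers with log2 differences above 0 and 2 below (LIN28B and PAX2). Of the 5, INA passed the test as higher (log2 fold change 0.38, edgeR adjusted p 0.0118). Of 10 markers of blood, liver, fibroblast and keratinocyte cells, CD3E had 0 reads in all 6 libraries, 7 others stayed under 0.5 CPM, and LUM and COL3A1, both fibroblast genes, reached 11.7 and 9.60 CPM. LUM passed the test as lower in co-culture (log2 fold change -0.67, edgeR adjusted p 0.0293). The summed level of the 10 was 13.8 to 19.8 CPM in the controls and 9.10 to 10.2 CPM in co-culture; the part of this in the values below was not tested. Co-culture libraries 2 and 3 had few reads on the unexpected strand (a median of 0.124% and 0.211% over well-covered genes, against 1.57% to 1.75% in the other 4 libraries). With that class as a batch term, which leaves co-culture library 1 to carry the comparison with the controls, 0 of the 33 members passed, where 0.199% of all tested genes did.

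Per kilobase of transcript, the members were well expressed. Levels between genes are compared here as CPM per kilobase of the longest protein-coding transcript in GENCODE 29, which may not be the authors' gene models. In the controls 31 of the 33 genes lay above the median of 9.57 CPM per kilobase over 12824 tested genes with a length. NARS, the asparaginyl-tRNA synthetase, was highest at 108 ± 11.8 CPM per kilobase (SD, n = 3), followed by SARS (seryl) at 88.0 ± 5.91, SHMT2 at 85.4 ± 5.02 and TARS (threonyl) at 81.2 ± 10.1. The SD ranges of SARS, SHMT2 and TARS overlapped. PSPH (17.6 ± 0.541), PYCR1 (8.85 ± 2.13) and CTH (4.75 ± 0.628 CPM per kilobase) stood last. CTH and PYCR1 also had the fewest reads of the 33 genes and the widest intervals.

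Promoter sequence was examined because ATF4 control of these genes runs through a known element. The core TGATGNAA was searched on both strands in RefSeq promoters of GRCh38.p14, from 250 bases before to 50 after each start. A promoter was in that table for 26 members, and LARS, PSPH, PYCR1, SHMT2, VARS and YARS were among the 7 others. The core was found in 9 of the 26 members (34.6%) and in 4.47% of 27167 genes with a promoter of that length. It was present in 9 of the 18 matched members that general knowledge lists as ATF4 targets and in 0 of the 8 others. Genes can be listed as targets because this element is known in them, so these shares are a description and no test. In the stretches of 28 bases below, read on the strand of the gene, capitals mark the core or its reverse complement, so that the repeated letters can be compared.
ASNS: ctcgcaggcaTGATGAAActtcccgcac
MTHFD1L: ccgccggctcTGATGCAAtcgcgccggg
AARS: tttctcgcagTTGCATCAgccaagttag
CARS: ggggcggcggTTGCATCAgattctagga
GARS: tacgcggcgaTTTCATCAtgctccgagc
IARS: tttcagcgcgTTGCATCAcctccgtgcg
MARS: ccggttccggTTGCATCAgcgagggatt
NARS: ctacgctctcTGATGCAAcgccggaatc
TARS: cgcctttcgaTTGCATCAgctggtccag

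Distances are to the start of the window that holds the match, and ASNS, CARS, GARS and TARS each have a further window without one. The match in ASNS began 68 bases before the start, that in AARS 187 bases before and that in GARS 33 bases before. Those in CARS, IARS and MARS began 2, 13 and 4 bases before their starts, while those in NARS and TARS began 14 and 2 bases after. In MTHFD1L the same match lies 129 and 90 bases before the start in a pair of promoter windows. It lies 24 bases after the start in another, and a further window held no match. ASNS is shown at full length as the standard reporter of this element, on chr7:97872409-97872658 (GRCh38.p14, minus strand, the 250 bases before the start), with the core in capitals.
ASNS promoter: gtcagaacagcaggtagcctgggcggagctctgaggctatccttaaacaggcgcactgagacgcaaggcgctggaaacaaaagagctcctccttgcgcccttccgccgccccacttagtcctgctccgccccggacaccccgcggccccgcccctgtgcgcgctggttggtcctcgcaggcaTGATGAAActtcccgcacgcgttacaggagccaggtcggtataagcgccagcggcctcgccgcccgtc

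The genes that share this core did not differ in a single direction. Of the 9, the fitted differences were above 0 for 6 (ASNS, MTHFD1L, AARS, IARS, MARS and NARS) and below 0 for 3 (CARS, GARS and TARS), with a median log2 difference of 0.056 and a range from -0.11 to 0.20. Of the 17 members with a promoter and no match, 8 lay above 0 and 9 below, with a median of -0.013 and a range from -0.19 to 0.19. A match describes letters in a window and is no evidence of binding.

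ASNS, which makes asparagine from aspartate and glutamine, stood at 107, 107 and 109 CPM in co-culture libraries 1, 2 and 3 and at 103, 93.1 and 90.8 CPM in controls 1, 2 and 3. All 3 co-culture libraries lay above all controls, and control 1 was the closest. The difference did not pass the test (log2 fold change 0.17, SE 0.063, edgeR adjusted p 0.135), with an interval from 0.033 to 0.31. Without control 1 it did (0.23, SE 0.050, edgeR adjusted p 0.00362), and over all 15 alternatives the adjusted p ran from 0.00362 to 0.516.

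The serine pathway draws on a glycolytic intermediate through PHGDH, PSAT1 and PSPH in turn. PHGDH, its first enzyme, stood at 183, 175 and 208 CPM in co-culture libraries 1, 2 and 3 and at 221, 179.9 and 181 CPM in controls 1, 2 and 3. Control 1 and co-culture library 3 were high and the other 4 libraries lay close together, so the groups overlapped (log2 fold change -0.038, SE 0.092, edgeR adjusted p 0.840). PSAT1, the aminotransferase of the next step, stood at 139.5, 139 and 147 CPM in co-culture libraries 1, 2 and 3 and at 131, 129.5 and 130.3 CPM in controls 1, 2 and 3. Its co-culture values all lay above very tight controls, yet the difference missed the threshold (log2 fold change 0.13, SE 0.055, edgeR adjusted p 0.197; interval 0.0055 to 0.25). PSPH, the phosphatase that releases serine, was at 38.2 ± 0.901 against 38.4 ± 1.18 CPM (SD, n = 3 each) with a log2 difference of -0.0070 and an interval from -0.15 to 0.14.

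In the one-carbon cycle, SHMT1 in the cytosol and SHMT2 in mitochondria turn serine into glycine and load the released carbon on folate. SHMT1 stood at 83.1, 84.7 and 87.9 CPM in co-culture against 77.8, 79.4 and 82.7 CPM in the controls, so the groups were apart by less than the gaps within either of them (log2 fold change 0.092, SE 0.059, edgeR adjusted p 0.373). SHMT2 stood at 205, 206 and 231 CPM in co-culture against 231, 212 and 207 CPM in the controls, with control 1 and co-culture library 3 level with each other (log2 fold change -0.017, SE 0.070, edgeR adjusted p 0.907). MTHFD2, the mitochondrial dehydrogenase that is low in most adult tissues and high in proliferating cells, stood at 155, 153 and 164 CPM in co-culture against 158, 160.4 and 158 CPM in the controls. The controls of MTHFD2 differed by less than the co-culture libraries did, and the groups overlapped (log2 fold change -0.013, SE 0.056, edgeR adjusted p 0.914; interval -0.14 to 0.11).

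MTHFD1L, which releases formate from mitochondrial folate, had the smallest p of all members. It stood at 89.9, 86.9 and 92.7 CPM in co-culture against 72.8, 76.5 and 84.9 CPM in the controls, and the co-culture libraries lay above all controls by a narrow margin (log2 fold change 0.20, SE 0.069, edgeR adjusted p 0.113; interval 0.050 to 0.35). Without control 3, its highest control, it passed the test (0.27, edgeR adjusted p 0.0428, with 5% of all genes past the threshold in that fit), and over the 15 alternatives the adjusted p reached 0.476. MTHFD1, the cytosolic enzyme that links the folate forms, was at 233 ± 5.14 against 247 ± 11.3 CPM with a log2 difference of -0.084 (edgeR adjusted p 0.427).

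Proline is made from glutamate, with ALDH18A1 at the start and PYCR1 at the end. ALDH18A1 stood at 189, 189 and 198 CPM in co-culture against 183, 176 and 180.5 CPM in the controls, with every co-culture library above the controls and no pass (log2 fold change 0.093, SE 0.055, edgeR adjusted p 0.341). PYCR1 was at 16.6 ± 0.278 against 16.9 ± 4.06 CPM, where control 1 alone held 21.4 CPM; its log2 difference was -0.021 with control 1 and 0.18 without it (edgeR adjusted p 0.947 and 0.171). CBS and CTH carry sulfur from homocysteine to cysteine, the amino acid that limits glutathione synthesis. CBS was at 68.6 ± 2.19 against 65.4 ± 4.26 CPM and CTH at 8.71 ± 0.194 against 9.71 ± 1.28 CPM, with log2 differences of 0.070 and -0.15 and edgeR adjusted p-values of 0.570 and 0.499.

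**Figure D2:**
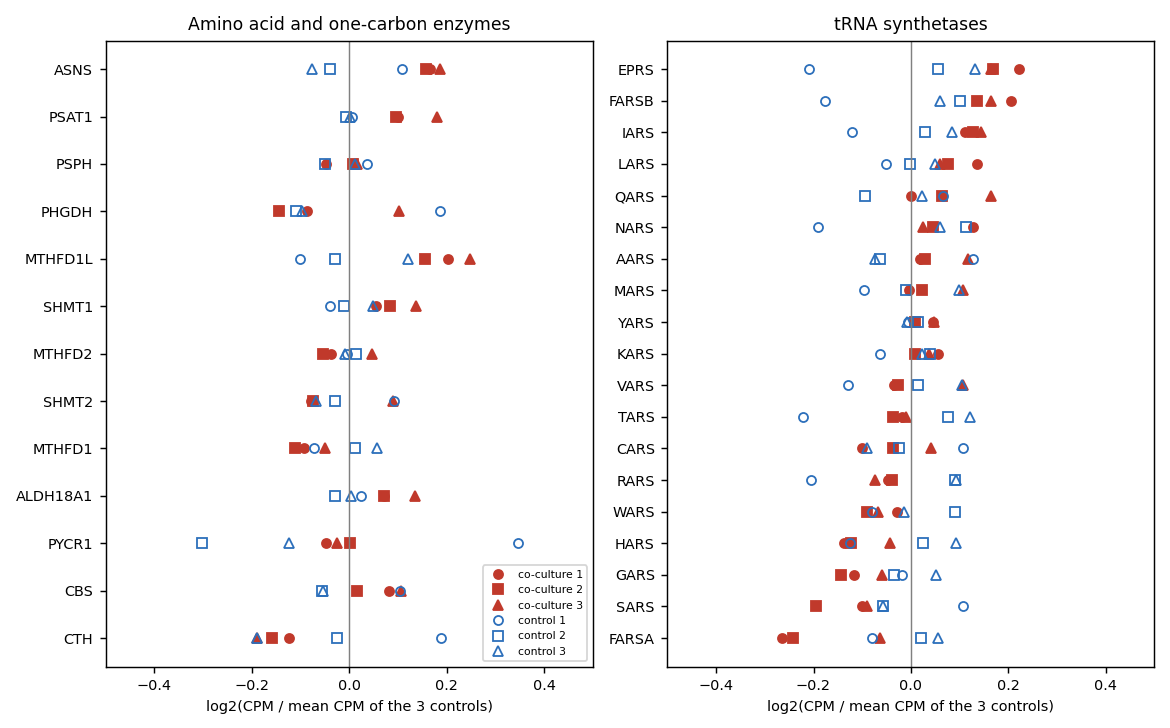
Level of each gene in each library as log2 of its CPM over the mean of the 3 controls (horizontal axis), with the 13 enzymes at left and 19 of the 20 synthetases at right; filled red marks are co-culture and open blue marks are control libraries. Control 1 (open circles) is the lowest of the 6 libraries for 12 genes and the highest for 8, and for 11 genes the co-culture marks all lie on one side of the controls.

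Of the 20 synthetase genes, 12 differences were above 0 and 8 below, with a median of 0.034 and a range from -0.19 to 0.19. The enzymes fall into class I and class II by the fold of their catalytic core. The 9 class I genes had a median log2 difference of 0.034 and the 10 class II genes 0.0058; EPRS, which joins a glutamyl and a prolyl enzyme in a single protein, belongs to both. In animal cells 8 of these genes, among them EPRS, IARS, LARS, QARS, MARS, KARS and RARS, encode the enzymes of the multi-synthetase complex. Their median log2 difference was 0.085, with 7 of 8 above 0, and that of the 12 synthetase genes outside it was -0.025, with 5 of 12 above 0; 0 genes passed in either group, and the difference between them was not tested. Scaled by total reads, the medians were 0.051 and -0.059; without control 1 they were 0.069 and -0.057, and with the batch term 0.083 and -0.031.

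Within the complex, EPRS stood at 301, 290.2 and 289 CPM in co-culture against 223, 268 and 283 CPM in the controls. Control 1 was far below the other 5 libraries, and the margin between the groups without it was small (log2 fold change 0.19, SE 0.083, edgeR adjusted p 0.208 with it, log2 fold change 0.091 and adjusted p 0.213 without it). IARS, for isoleucine, stood at 406, 411 and 415 CPM in co-culture against 346, 383 and 399 CPM in the controls, with all co-culture libraries above the controls (log2 fold change 0.13, SE 0.067, edgeR adjusted p 0.282; 0.071 without control 1). A further 5 genes of the complex had log2 differences of 0.091 (LARS, leucine), 0.079 (QARS, glutamine), 0.043 (MARS, methionine), 0.034 (KARS, lysine) and -0.054 (RARS, arginine), with edgeR adjusted p-values from 0.390 to 0.761.

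Outside the complex, the phenylalanyl enzyme is built from an alpha subunit (FARSA) and a beta subunit (FARSB), and their transcripts leaned in opposite directions. FARSA stood at 115, 117 and 133 CPM in co-culture libraries 1, 2 and 3 and at 131, 141 and 144 CPM in controls 1, 2 and 3. FARSB stood at 93.2, 88.8 and 90.5 CPM in co-culture libraries 1, 2 and 3 and at 71.5, 86.6 and 84.2 CPM in controls 1, 2 and 3. The FARSA groups overlapped at co-culture library 3 and control 1, and the FARSB groups did not overlap. Neither gene passed (log2 fold change -0.19, SE 0.070, edgeR adjusted p 0.141 for FARSA, and log2 fold change 0.17, SE 0.075, edgeR adjusted p 0.208 for FARSB). Control 1 was the lowest library of FARSB, whose log2 fold change without it was 0.089 (edgeR adjusted p 0.245). The ratio of FARSA to FARSB within a library, which no scaling of libraries can alter, was 1.24, 1.32 and 1.46 in co-culture and 1.83, 1.62 and 1.71 in the controls, without overlap. This pair was picked after its values were seen, so the ratio is a description with no test.

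GARS, SARS and WARS charge glycine, serine and tryptophan. GARS stood at 154, 151 and 160.2 CPM in co-culture against 165, 163 and 173 CPM in the controls. SARS stood at 154, 145 and 156 CPM in co-culture against 178, 159 and 159 CPM in the controls. These were the 2 members whose co-culture libraries all lay below the controls, in both cases without passing (log2 fold change -0.11, SE 0.057, edgeR adjusted p 0.292 for GARS, and log2 fold change -0.13, SE 0.065, edgeR adjusted p 0.272 for SARS). Without control 1 the log2 fold change of SARS was -0.070. WARS, which interferons are also known to induce, stood at 97.6, 93.5 and 94.9 CPM in co-culture against 94.1, 106 and 98.5 CPM in the controls and the groups overlapped (log2 fold change -0.061, SE 0.062, edgeR adjusted p 0.589). AARS, for alanine, stood at 224, 225 and 239 CPM in co-culture against 241, 211 and 209.8 CPM in the controls, with control 1 the highest of the 6 libraries (log2 fold change 0.056, SE 0.069, edgeR adjusted p 0.666; 0.12 without it).

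The other 6 synthetases outside the complex charge cysteine (CARS), histidine (HARS), asparagine (NARS), threonine (TARS), valine (VARS) and tyrosine (YARS). Their log2 differences were -0.029, -0.10, 0.067, -0.022, 0.017 and 0.034, with edgeR adjusted p-values from 0.404 to 0.915, and the groups overlapped for all 6. YARS, for example, was at 170.2 ± 2.62 against 166 ± 1.37 CPM (SD, n = 3 each). HARS and HARS2, the mitochondrial histidyl enzyme, lie head to head with overlapping promoter windows in RefSeq. HARS stood at 118, 119 and 126 CPM in co-culture against 119, 132 and 138 CPM in the controls, and HARS2 at 49.1, 51.0 and 48.5 CPM in co-culture against 44.8, 45.3 and 49.4 CPM in the controls. Their ratio within a library was 2.40, 2.34 and 2.60 in co-culture and 2.65, 2.91 and 2.80 in the controls, again without overlap and again chosen after the values were seen.

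Control 1 was often at an end of the range of libraries. It was the lowest of all 6 libraries for 12 members and the highest for 8. Together these were 60.6% of the members, where the same held for 50.9% of all tested genes. Co-culture library 3 was also the highest library for many members, among them ASNS, PSAT1, MTHFD1L, IARS and QARS. The 2 sets of members leaned opposite ways in control 1, a contrast that was not tested. Over all tested genes control 1 was the lowest library for 26.4% and the highest for 24.5%. It was lowest for 10 of the 20 synthetase genes (EPRS, FARSB, IARS, KARS, LARS, MARS, NARS, RARS, TARS and VARS) and highest for 3 (AARS, CARS and SARS). Among the 13 enzymes it was highest for 5 (PHGDH, PSPH, SHMT2, PYCR1 and CTH) and lowest for 2 (SHMT1 and MTHFD1L). The summed level of the synthetase genes was 3722 CPM in control 1 and 3984 to 4096 CPM in the other 5 libraries. The enzymes summed to 1555 CPM in control 1, within the range of 1480.1 to 1611 CPM of the rest.

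Without control 1, 4 members passed the test, which is 12.1% of the 33, where 20.8% of all genes passed in that fit. ASNS was the 1 higher gene (10.6% of all genes were higher in that fit and 10.3% lower). FARSA (-0.22, edgeR adjusted p 0.0139), HARS (-0.16, 0.0397) and RARS (-0.15, 0.0427) were lower. RARS stood at 131, 132 and 129 CPM in co-culture against 118, 145 and 145 CPM in the controls, so that the co-culture libraries fell between control 1 and the other controls. The median log2 difference of the 13 enzymes moved from -0.0070 with 6 genes above 0 to 0.073 with 10 above 0, and that of the 20 synthetases from 0.034 to 0.00027.

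**Figure D3:**
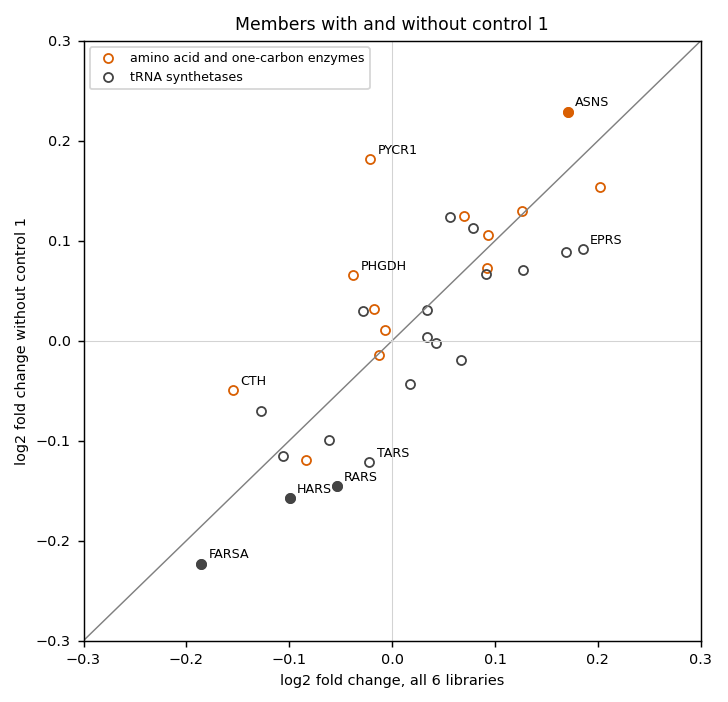
Log2 fold change of 32 members without control 1 (vertical axis) against that from all 6 libraries (horizontal axis), with filled marks where the adjusted p without control 1 was under 0.05. ASNS is the filled mark at upper right, FARSA, HARS and RARS are those at lower left, and PYCR1 lies farthest from the line of equality (-0.021 against 0.18).

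The wider pathway was read from 5 lists of related genes. Of 17 mitochondrial synthetase genes 0 passed, with 5 above 0 and 12 below and a median log2 difference of -0.045; YARS2 (-0.27) and MARS2 (-0.32) were among the 3 at an unadjusted p under 0.05. In the list of complex scaffolds, the mitochondrial glutamyl-tRNA amidotransferase and a further threonyl enzyme, 1 of 7 genes passed, and it was higher. Of 21 other amino acid enzymes 18 could be tested (the other 3, GPT and TAT among them, had at most 6 reads in any library) and 0 passed, with 1 (GCAT) at an unadjusted p under 0.05. Of 17 other folate and glycine cleavage genes 0 passed, with 2, AMT among them, at an unadjusted p under 0.05. Of 19 regulators of the ATF4 pathway 0 were higher and 2 lower, where 2.66% and 2.17% of all genes passed as higher and lower; 8 of the 19 (2 higher, 6 lower; 42.1%) had an unadjusted p under 0.05, where 23.2% of all genes did. Without control 1 the counts higher and lower were 1 and 2 for the mitochondrial synthetases, 1 and 1 for the scaffolds, 2 and 1 for the amino acid enzymes, 2 and 0 for the folate genes and 2 and 5 for the regulators, where 10.6% and 10.3% of all genes passed as higher and lower.

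AIMP1, a scaffold protein of the multi-synthetase complex, was the gene of the scaffold list that rose. It stood at 69.4, 71.1 and 67.3 CPM in co-culture libraries 1, 2 and 3 and at 50.6, 58.1 and 59.5 CPM in controls 1, 2 and 3, without overlap (log2 fold change 0.30, SE 0.073, edgeR adjusted p 0.0408). The call was lost without any of co-culture libraries 1, 2 and 3 or control 2 (log2 fold changes 0.31, 0.29, 0.33 and 0.33, edgeR adjusted p 0.143, 0.190, 0.0764 and 0.132) as well as with the batch term (0.31, 0.317) and with the replicate number as a term (0.31, 0.104). The other scaffolds AIMP2 and EEF1E1 had log2 differences of -0.14 and 0.23 (edgeR adjusted p 0.316 and 0.294).

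Among the regulators, DDIT3 and ATF5 fell, while ATF4 and the kinase EIF2AK4 did not pass the test. Other eIF2 kinases of the list also did not pass, with log2 fold changes from -0.24 to 0.041 (edgeR adjusted p 0.0694 to 0.873). EIF2AK4, the kinase that senses uncharged tRNA, stood at 118, 116 and 118 CPM in co-culture against 106, 106 and 96.0 CPM in the controls, without overlap (log2 fold change 0.19, SE 0.059, edgeR adjusted p 0.0862). Over the 15 alternatives its adjusted p ran from 0.00932 to 0.423. EIF2AK4 passed in 1 of them, the edgeR fit without control 1, where 20.8% of all genes passed. ATF4 stood at 342, 377 and 399 CPM in co-culture against 374, 335 and 353 CPM in the controls, with control 1 between co-culture libraries 1 and 2 (log2 fold change 0.075, SE 0.073, edgeR adjusted p 0.577). DDIT3, the ATF4-induced factor CHOP, stood at 9.11, 10.8 and 10.1 CPM in co-culture against 19.4, 21.3 and 18.5 CPM in the controls and fell (log2 fold change -0.98, SE 0.10, edgeR adjusted p 0.00105), a call kept in all 15 alternatives. ATF5, a factor related to ATF4, stood at 19.96, 21.7 and 22.4 CPM in co-culture against 29.2, 35.3 and 33.6 CPM in the controls and fell (log2 fold change -0.61, SE 0.089, edgeR adjusted p 0.00537); its call was lost without co-culture library 2 (-0.62, edgeR adjusted p 0.0505), without control 2 (-0.55, 0.0548) and with the batch term (-0.71, 0.110). TRIB3, an ATF4 target that restrains it, stood at 32.5, 35.1 and 37.5 CPM in co-culture against 48.4, 36.4 and 32.8 CPM in the controls, with overlap (log2 fold change -0.16, SE 0.13, edgeR adjusted p 0.515). The gene spans of DDIT3 and MARS overlap in RefSeq, and the forward-strand share of reads was 29.2% over DDIT3 and 20.4% over ATF5, while it was 0.208% to 3.75% over the 33 members. The part of this in the values of DDIT3 and ATF5 was not tested. Counted without regard to strand, DDIT3 and ATF5 had log2 fold changes of -0.89 and -0.50.

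**Figure D4:**
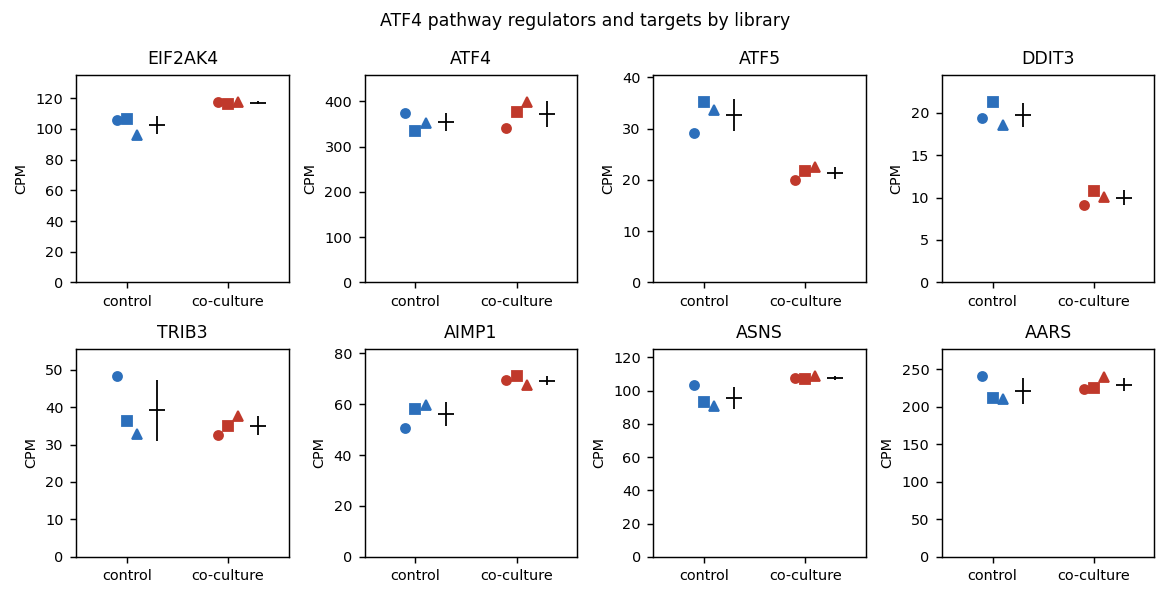
CPM (vertical axis, from 0) of 5 ATF4 pathway regulators, the scaffold gene AIMP1 and the members ASNS and AARS in each library, with the mean and SD of 3 libraries in black beside the points. DDIT3 and ATF5 are lower in all co-culture libraries, AIMP1, EIF2AK4 and ASNS are higher in all of them, and ATF4, TRIB3 and AARS overlap between the groups.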

How the data were processed

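Per the labels, RNA of 6 samples of sorted HEK293 cells was extracted with TriPure, and an Illumina stranded mRNA kit made the libraries. Each deposited file gives raw read counts per gene in the layout of STAR's gene counting, 1 file per sample. FastQC, STAR 2.53a and hg18 are named, per the submitters' processing notes; the annotation is not given in the sources used here. The reverse-strand counts were used. The 4 summary lines (no gene, ambiguous, multimapping, unmapped) took 14.8% to 17.7%, 0.835% to 1.01%, 6.48% to 8.42% and 1.22% to 1.67% of the reads and were left out.

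Groups and replicate numbers came from the sample titles. Co-culture was compared with control in edgeR 4.0.16 (R 4.3.3): filterByExpr at a minimum count of 10 left 14582 of 23686 genes, libraries were scaled by TMM, and the robust quasi-likelihood F test was adjusted by Benjamini-Hochberg over all tested genes at 0.05. SE is the absolute log2 fold change over the square root of F, and 95% intervals use the fit's degrees of freedom. limma 3.58.1 and DESeq2 1.42.0 served as alternatives, with other scalings, filters, strand counting, a replicate block, a batch term and fits without each library. Replicates differed by more than sampling noise (chi-square per degree of freedom 4.73 to 18.5). Promoters came from a RefSeq table of GRCh38.p14 and transcript lengths from GENCODE 29, matched by symbol; no coordinates of the authors' build were used. The scripts were tested on simulated data.

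The members and lists were chosen with earlier results of these data known. Values in every library are given for the 12 members with the smallest p and for ASNS, PHGDH, PSAT1, SHMT2, MTHFD2, AARS, GARS and WARS, except 1 member that, like some list genes, is not reported here by name though it enters the counts and medians; HARS and RARS were added after their values were seen. Of list genes, those past the threshold and ATF4, DDIT3, EIF2AK4 and TRIB3 are named; others named were added after their values were seen. The list gene GATB was found as PET112.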

Additional observations from a re-analysis of the deposited data

How the results depend on the processing

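The alternatives for list genes were chosen after seeing the data. The count of 0 members past the threshold was the same in 13 of 15 alternatives. In the fits that left out a library it ran from 0 to 4 (4 without control 1, 1 without control 3, 0 without each of the others). Over all genes the count was 704 (55.1% of them higher); it was 164 with the replicate block and 29 with the batch term for strand class, and from 65 to 3069 in the fits that left out a library. Scaling by total reads gave 882 genes, 35.1% of them higher. The median log2 difference of the 13 enzymes, -0.0070 with all libraries, ran from -0.017 to 0.073 in the fits without a library (0.073 without control 1) and was -0.041 with total reads and -0.038 with the batch term. In the fits without a library that of the 20 synthetases ran from 0.00027 to 0.048; it was 0.00053 with total reads and -0.0019 with the batch term. The causes were not tested. Same-numbered libraries of the 2 groups did not deviate together (correlations of -0.067, -0.170 and -0.169), so the numbers were not taken as pairs; with the replicate block 0 members passed and 3 had an unadjusted p under 0.05 (2805 of 14582 genes did), and AIMP1 lost its call (0.31, edgeR adjusted p 0.104). Members had 178 to 14858 reads in a library, with the fewest for CTH and PYCR1.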
